A study of Homo sapiens with 20 samples.

Results

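The genes described here encode the pocket proteins (RB1, RBL1 and RBL2), subunits of the DREAM complex (TFDP1, LIN9, LIN37, LIN52 and LIN54) and the activators MYBL2 and FOXM1, which work with the same core. The 10 genes were picked by gene symbol in GENCODE, and the estimated counts of their transcripts were summed to a count per gene. They are 10 of the 27697 mRNA and lncRNA genes tested in the nutlin dataset, and all 10 passed the filter on low counts. The dataset holds 20 RNA-seq libraries of NGP, a MYCN-amplified neuroblastoma cell line grown in culture. Of these, 10 were made from cells given nutlin-3 (a racemic mixture, 8 µM) and 10 from cells given only its vehicle, ethanol. The samples of both groups come from this single line, and the length of treatment is not given in the sources used here. The study's methods call the samples of a group biological replicates, here of a cell line, so the p-values measure the spread between cultures of that line.

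Pocket proteins bind E2F transcription factors and silence their targets. In arrested cells RBL2 or RBL1 joins a repressive E2F with its partner TFDP1 and a core of LIN9, LIN37, LIN52, LIN54 and RBBP4 to form DREAM, which represses genes of the cell cycle. When cyclin-dependent kinases phosphorylate the pocket proteins the core is freed, binds MYBL2 and then FOXM1, and turns on the genes of mitosis. Nutlin-3 blocks the binding of MDM2 to the p53 protein, and among the genes that p53 induces are MDM2 itself and the kinase inhibitor CDKN1A.

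Libraries were of similar depth, with between 14455477 and 19532971 estimated counts per sample. MDM2 was used to check the labels. Its level, as CPM (counts scaled to library size after TMM normalization), was between 198.9 and 290.3 in the vehicle samples and between 4797 and 6005 in the nutlin samples. All 8 markers of neuroblastoma were expressed, and their summed level was between 6294 and 7139 CPM in vehicle and between 5460 and 5902 CPM in nutlin samples. Of these markers MYCN fell by 0.41 on the log2 scale, while TH, the first enzyme of catecholamine synthesis, rose by 0.62 and GATA3 by 0.39. Across the list, 2 genes rose, 5 fell and 1 was not called (edgeR, 5% FDR), where 34.8% of all genes averaging 1 CPM or more rose and 45.3% fell. Markers of other cell types were low, at a summed level of 10.31 to 17.0 CPM in vehicle and 38.68 to 49.51 CPM in nutlin samples, with the T cell marker CD3E at 0 throughout. Of 7 that could be tested 4 rose, among them COL1A1 by 1.98, PRRX1 by 1.97 and EPCAM by 1.70 on the log2 scale. Of all genes tested 32.3% rose. Only COL1A1 had separate groups. PRRX1 (mean 0.5251 CPM in vehicle, 2.08 in nutlin samples) and EPCAM (0.4486 and 1.49) were low, with overlapping groups. The part of these markers in the results below was not tested.

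Sequences are shown near the starts of MYBL2, RBL1 and RBL2, the activator and pocket protein genes with a usable promoter entry, since E2F and DREAM act through short words near the start of their targets. RefSeq promoter windows on GRCh38.p14, of 300 bases from 250 before to 50 after a start, were used where the start lay within 1000 bases of that of the member's most abundant transcript. This left 7 of the 10 members. FOXM1 had no entry, and those of RB1 and LIN54 lay farther away. Both strands were searched for 5 E2F words. These were TTGGCGC and its variant TTCGCGC, then TTCCCGC and likewise TTGCCGC, and last the word GGCGGGA, which can overlap TTCCCGC on the opposite strand. Words of the cell cycle homology region (CHR), the DNA element bound by LIN54, were TTTGAA and also TTCGAA. The CCAAT box was searched by the letters in its name. The words were chosen after the sequences had been seen. In the following lines, written 5′ to 3′ on the strand of the gene, capitals mark E2F words in MYBL2 and RBL1 and the CHR word in RBL2.
MYBL2, the 100 bases before the start, chr20:43667014-43667113, plus strand: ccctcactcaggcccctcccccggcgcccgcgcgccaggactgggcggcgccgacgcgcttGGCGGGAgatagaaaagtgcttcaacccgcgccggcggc
RBL1, the 100 bases before the start, chr20:37095998-37096097, minus strand: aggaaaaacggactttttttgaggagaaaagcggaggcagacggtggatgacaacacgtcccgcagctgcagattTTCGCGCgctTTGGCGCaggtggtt
RBL2, 30 bases around the CHR word, chr16:53434483-53434512, plus strand: ggcgcttcgccgTTTGAAtggctgcgggcc

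In MYBL2 the E2F word lay 39 to 33 bases before the start of MYBL2-201, its most abundant transcript. The gene as annotated begins farther up, at chr20:43667019, so this word lies inside it. RBL1 held a pair of different words at 25 to 19 and 15 to 9 bases before its start, and another farther up. The CHR word of RBL2 was inside the transcribed part, 25 to 30 bases after the start. An E2F word was found in 4 of the 7 windows (RBL1, LIN52, TFDP1 and MYBL2), against 23.2% of all 35116 windows. A CHR word was found in 1 of 7 (RBL2), against 16.4% of all windows, and CCAAT in 2 of 7 (LIN37 and LIN52), against 34.6%. A match describes the letters and not binding.

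After nutlin treatment, 2 members rose and 8 fell at 5% FDR (edgeR QL with Benjamini-Hochberg adjustment over all genes tested). The activators fell most, MYBL2 8.88-fold and FOXM1 6.24-fold, followed by RBL1 at 3.29-fold. RBL2 rose 1.76-fold and LIN37 1.53-fold. Among all genes tested 58.8% were significantly differentially expressed (SDE), 32.3% up and 26.5% down, so that being SDE was common in this dataset. Among the 15168 genes that averaged 1 CPM or more, as all members did, 80.2% were SDE, 34.8% up and 45.3% down. In 7 members every nutlin sample was below every vehicle sample, as in 16.6% of all genes tested and 30.2% of those averaging 1 CPM or more. In 2 every nutlin sample was above, as in 12.2% and 18.9%. A log2 fold change (LFC) of -1 or lower was found for 6 members, against 5.81% of all genes and 8.49% of those averaging 1 CPM or more. An LFC of 1 or higher was found for 0 members, against 16.2% and 10.3%. The median LFC was -1.09 over the members and 0.19 over all genes tested. The libraries are from bulk RNA, in which fewer cells of a kind and less RNA per cell cannot be told apart.

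**Figure D1:**
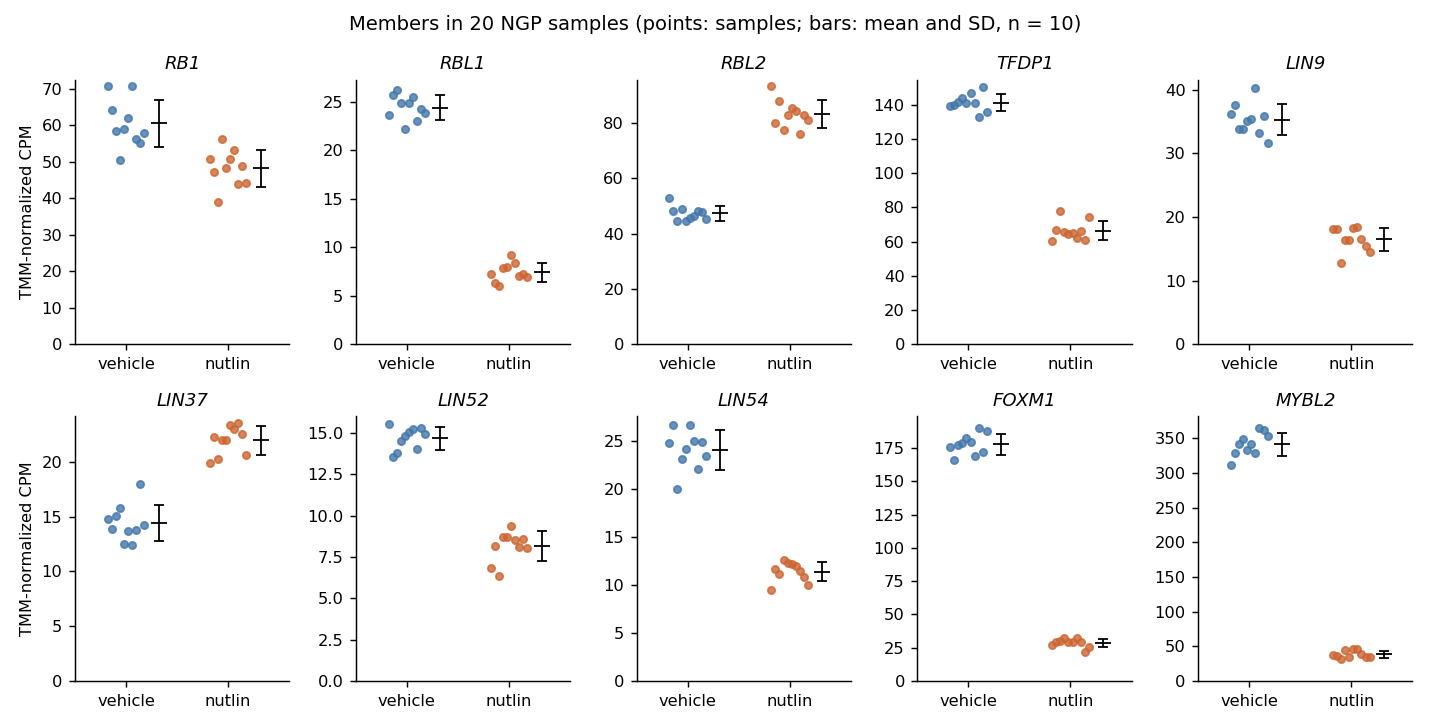
TMM-normalized CPM of each of the 10 members in the 20 samples, with a panel per gene and the y axis from 0. Points are samples and bars are the mean and SD of 10 samples per group, and the 2 groups are apart in every panel but that of RB1.

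The scaling bears on all of these values. With library totals alone in place of TMM, the median LFC over all genes went from 0.19 to 0.37 and the share of SDE genes that were up from 54.9% to 67.7%, and 3 members had an LFC of -1 or lower. Under the 10 alternatives tried each member kept its direction.

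MYBL2 (ENSG00000101057, chr20:43667019-43716495, plus strand) encodes the MYB protein that joins the freed core in S phase. Positions of genes are those of GENCODE release 44 on hg38. Its level was lowest at 311.6, with a median of 341.6 and a highest value of 364.7 CPM, in the vehicle samples. In the nutlin samples it was 31.74 at the lowest, 36.79 at the median and 46.42 CPM at the highest. The groups were far apart, and the highest nutlin sample was well below the lowest vehicle sample. Its LFC was -3.15 (SE 0.06, edgeR adjusted p = 3.21e-27). Of the 15168 genes that averaged 1 CPM or more, 20 fell more.

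FOXM1 (ENSG00000111206, chr12:2857680-2877174, minus strand), the forkhead factor that activates genes of G2 and mitosis, had between 165.8 and 190.3 CPM in vehicle samples, with a median of 178.0. In nutlin samples it had between 21.62 and 32.38 CPM, with a median of 29.24. No nutlin sample came near the vehicle range, and the LFC was -2.64 (SE 0.05, edgeR adjusted p = 5.6e-27). In the same set of genes 88 fell more. FOXM1 shares 782 exon bases (15.9% of its own) with ITFG2 on the opposite strand. Libraries were stranded, but whether strand was used in counting is not given in the sources used here. ITFG2 itself had an LFC of -0.05 (SE 0.05, edgeR adjusted p = 0.339).

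RBL1 (ENSG00000080839, chr20:36996349-37095997, minus strand), or p107, the pocket protein whose level is usually highest in cycling cells, was measured at 22.15 CPM in the lowest, 24.57 in the median and 26.25 in the highest vehicle sample. The corresponding nutlin values were 6.02, 7.22 and 9.192 CPM. The ranges were separate, with an LFC of -1.72 (SE 0.06, edgeR adjusted p = 1.32e-20). The counts behind this gene were small after treatment, between 88 and 139 per nutlin sample. RBL1 shares 213 exon bases (3.58%) with the lncRNA ENSG00000269846 on the opposite strand, which was not called (edgeR adjusted p = 0.896).

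RBL2 (ENSG00000103479, chr16:53433977-53491648, plus strand), or p130, the pocket protein typical of resting cells, went the other way. Vehicle samples had between 44.48 and 52.98 CPM, with a median of 47.0. Nutlin samples had between 75.81 and 93.17 CPM, with a median of 82.86. All nutlin samples were thus above all vehicle samples, and the LFC was 0.81 (SE 0.04, edgeR adjusted p = 1.95e-17). The gene shares 609 exon bases (7.51%) with AKTIP on the opposite strand, which moved in the other direction (LFC -0.47, SE 0.07, edgeR adjusted p = 2.07e-06). It also shares 721 (8.89%) with ENSG00000279344 on the opposite strand, which was not tested.

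RB1 (ENSG00000139687, chr13:48303744-48599436, plus strand), the retinoblastoma protein itself, changed least in CPM. Its level was 50.46 CPM at the lowest, 58.84 at the median and 70.95 at the highest in vehicle samples, and 38.93, 48.54 and 56.24 CPM in nutlin samples. These ranges overlapped, with 6 of 10 nutlin samples below the lowest vehicle sample. The highest vehicle levels were those of replicates 4 and 12, at 70.95 and 70.74 CPM. The LFC was -0.33 (SE 0.06, edgeR adjusted p = 2.29e-05). With library totals in place of TMM it was -0.14 and no longer called (edgeR adjusted p = 0.0733). With an offset for effective length it was -0.54, while that of LIN37 was 0.48. In TPM the groups of RB1 were just apart, at 15.93 to 21.68 in vehicle and 10.22 to 15.64 in nutlin samples.

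In the core of DREAM the members split by direction. LIN9 (ENSG00000183814, chr1:226231149-226309869, minus strand), which the core needs for binding its activators, fell from a median of 35.26 CPM (31.57 to 40.18) in vehicle to 16.49 CPM (12.79 to 18.39) in nutlin samples. LIN54 (ENSG00000189308, chr4:82909973-83012926, minus strand), the subunit that binds DNA at the CHR, fell from a median of 24.48 CPM (20.01 to 26.75) to 11.57 CPM (9.529 to 12.66). LIN52 (ENSG00000205659, chr14:74084956-74201493, plus strand), which holds the pocket protein, fell from a median of 14.88 CPM (13.55 to 15.55) to 8.343 CPM (6.362 to 9.39). None of these 3 genes had overlapping groups. Their LFC were -1.10 for LIN9 (SE 0.06, edgeR adjusted p = 1.58e-16), -1.08 for LIN54 (SE 0.06, edgeR adjusted p = 4.07e-16) and -0.85 for LIN52 (SE 0.06, edgeR adjusted p = 3.74e-13).

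LIN37 (ENSG00000267796, chr19:35748361-35754519, plus strand), a subunit needed for repression by DREAM, was the only LIN member to rise. It went from a median of 14.03 CPM (12.45 to 18.03) in vehicle to 22.19 CPM (19.9 to 23.61) in nutlin samples. Every nutlin sample was above every vehicle sample, although the margin between the nearest samples was small. The LFC was 0.61 (SE 0.06, edgeR adjusted p = 1.45e-10). LIN37 shares 752 exon bases (26.7%) with the protein-coding gene ENSG00000188223 on the same strand and 1180 (41.8%) with the lncRNA ENSG00000267439 on the other, so that its reads are in part uncertain. Neither of these was called, with LFC of 0.14 (SE 0.28) and 0.31 (SE 0.25) and edgeR adjusted p of 0.697 and 0.295.

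TFDP1 (ENSG00000198176, chr13:113584721-113641473, plus strand), the partner through which E2F proteins bind DNA, fell from a median of 140.9 CPM (133.0 to 150.1) in vehicle to 65.18 CPM (60.46 to 77.65) in nutlin samples. The groups were separate, and the LFC was -1.09 (SE 0.04, edgeR adjusted p = 4.11e-20). Its vehicle samples varied less than those of any other member, with a coefficient of variation of 3.48%.

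Other genes of the same machinery were described by lists. For comparison, 34.8% of all genes averaging 1 CPM or more rose and 45.3% fell. Of the other DREAM subunits 0 rose, 3 fell and 1 was not called. RBBP4, the histone-binding subunit of the core, fell from 586.3 ± 13.55 to 362.8 ± 8.029 CPM (mean and SD, n = 10 each, LFC -0.69). E2F5 (LFC -0.39) and TFDP2 (LFC -0.14), a repressive E2F and another dimerization partner, fell less. The call of TFDP2 was lost with the filterByExpr filter (LFC -0.06, edgeR adjusted p = 0.0823) and its LFC was 0.05 with library totals. E2F4, the usual E2F of DREAM, had an LFC of -0.08 (SE 0.04, edgeR adjusted p = 0.0709). It was called down over protein-coding transcripts alone (LFC -0.18) and up with library totals (LFC 0.11).

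Of the remaining E2F genes 5 fell and 1 rose. E2F8 (LFC -4.06), E2F2 (LFC -3.21) and E2F1 (LFC -3.15) fell most, E2F1 from 200.6 ± 12.88 to 22.59 ± 1.593 CPM (mean and SD, n = 10 each). The gene that rose was E2F7, an atypical repressor, from 21.64 ± 2.365 to 56.8 ± 7.507 CPM (LFC 1.39). Both other MYB genes fell, MYB with an LFC of -3.81 and MYBL1 with an LFC of -1.33.

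Among the kinases, cyclins and inhibitors that act on pocket proteins, 6 genes rose, 10 fell and 1 was not called. Of all genes averaging 1 CPM or more 34.8% rose, a like share, and 45.3% fell. CDKN1A (p21), the inhibitor of cyclin-dependent kinases, went from 32.82 ± 11.26 to 1679 ± 159.0 CPM (LFC 5.68, SE 0.14). CDK2 (LFC -3.11) and CCNA2 (LFC -2.97), the S phase kinase and its cyclin A partner, fell. CDKN2B, an inhibitor of CDK4 and CDK6, and CCND2, a cyclin D, rose with LFC of 1.45 and 1.30, the latter from a mean of only 0.6401 CPM.

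All 20 genes of the G1/S list fell, with a median LFC of -2.59, led by GINS2 (-3.54), MCM6 (-3.44) and TK1 (-3.14), which act in origin firing, helicase loading and thymidine salvage. In 6 of the 10 alternatives 19 fell, the exception being TYMS, thymidylate synthase (LFC -0.17, edgeR adjusted p = 0.00907). All 30 genes of the G2/M list fell, with a median LFC of -2.65, led by CENPA (-3.26), CCNB1 (-3.06) and KIF20A (-3.01), the centromeric histone, cyclin B1 and a kinesin of cytokinesis. Beside these, 45.3% of all genes averaging 1 CPM or more fell, and their median LFC was -0.08. Both lists were chosen with earlier results of these data known, so this comparison is only descriptive. The LFC of MYBL2, FOXM1 and RBL1 lay within the range of the G2/M list, from -3.26 to -1.64, and those of the other members above it.

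**Figure D2:**
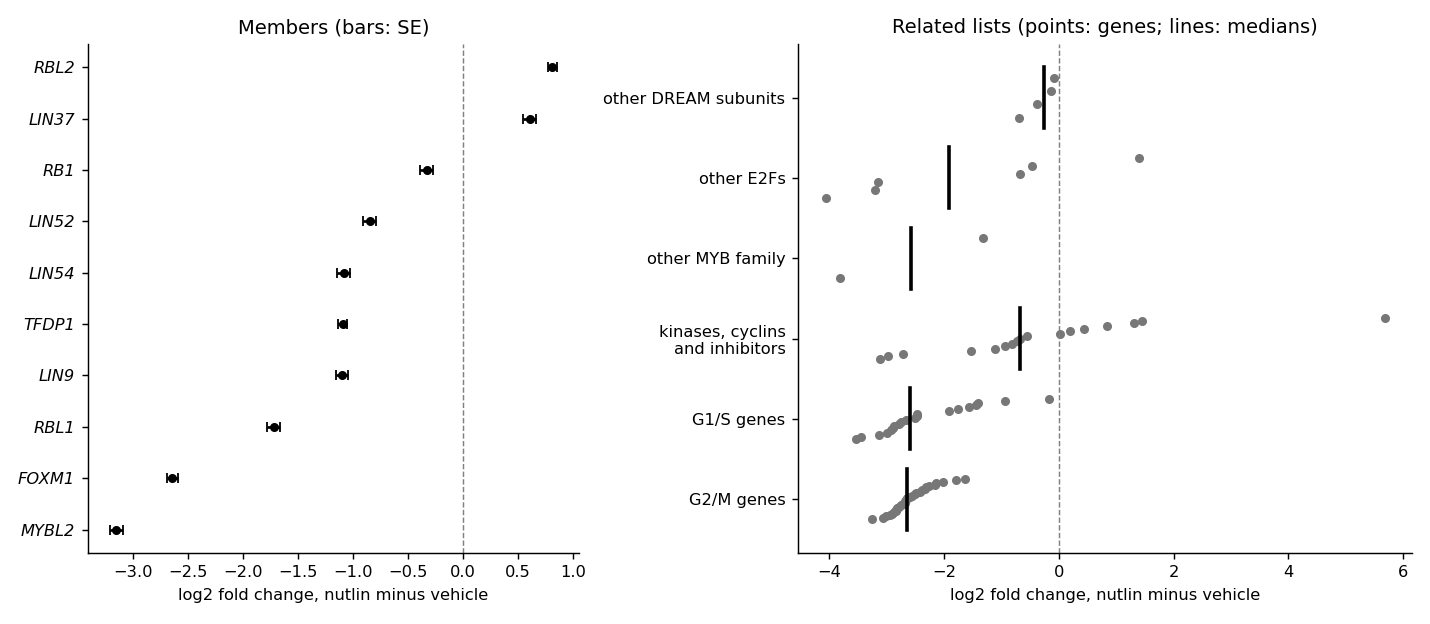
Left, LFC of the 10 members after nutlin treatment with SE. Right, LFC of the genes of 6 related lists, a point per gene and a line at the list's median, with every point of the G1/S and G2/M lists below 0 and CDKN1A at 5.68 as the point farthest to the right.

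Levels of different genes were compared per length, in TPM. In vehicle samples the order was MYBL2 (143.1 ± 7.609 TPM, mean and SD, n = 10), TFDP1 (106.7 ± 7.692), FOXM1 (67.26 ± 5.9), RB1 (18.64 ± 1.713), RBL2 (17.64 ± 1.875), LIN37 (16.53 ± 2.076), LIN9 (14.09 ± 1.795), LIN52 (7.243 ± 0.7138), LIN54 (6.974 ± 1.156) and RBL1 (6.345 ± 0.6553). The leading 3 genes were separate from each other and from the rest. Neighbours from RB1 to LIN9 overlapped, as did those from LIN52 to RBL1. In nutlin samples TFDP1 led with 48.33 ± 3.617 TPM, followed by RBL2 (37.95 ± 3.787), LIN37 (23.09 ± 1.662), MYBL2 (15.92 ± 2.46), RB1 (12.84 ± 1.899), FOXM1 (11.23 ± 2.157), LIN9 (6.905 ± 0.7595), LIN52 (4.467 ± 0.4181), LIN54 (3.159 ± 0.4227) and RBL1 (2.12 ± 0.5504). The ranges of TFDP1 and RBL2 overlapped, although TFDP1 was higher within all 10 samples, and those of MYBL2, RB1, FOXM1 and LIN9 overlapped from each to the next, as did those of LIN54 and RBL1. Over all transcripts MYBL2 went from rank 1 to rank 4 and RBL2 from rank 5 to rank 2. This order depended on transcripts not annotated as protein-coding. Over protein-coding transcripts alone, FOXM1 (56.56 ± 5.087 TPM) came before TFDP1 (51.91 ± 4.842) in vehicle samples, with overlapping ranges. In nutlin samples MYBL2 (15.92 ± 2.46 TPM) then had rank 2 and RBL2 (14.84 ± 1.579) rank 3, with overlapping ranges and MYBL2 higher within 5 of 10 samples.

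**Figure D3:**
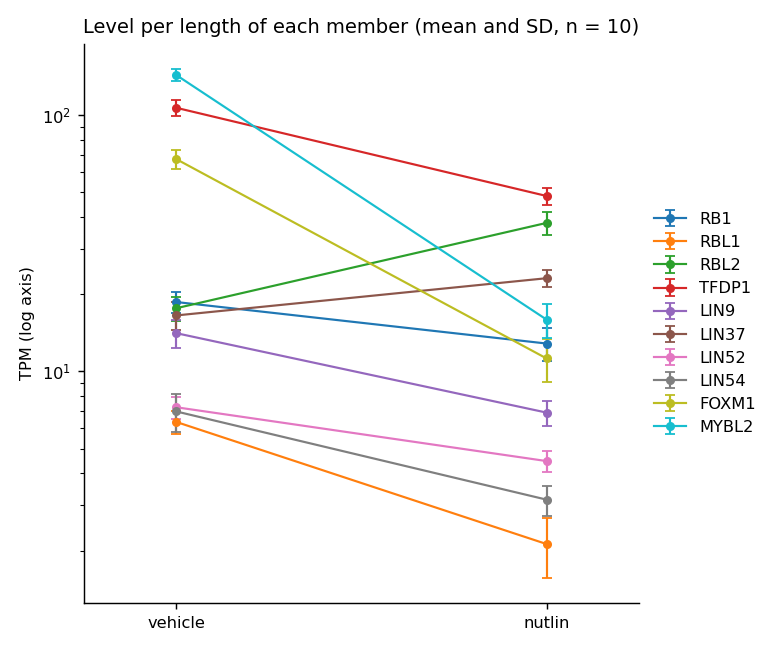
TPM of each member on a log axis in vehicle and nutlin samples, as the mean and SD of 10 samples. The lines of RBL2 and LIN37 go up and the other 8 go down, and over all transcripts MYBL2 at 15.92 TPM ends below RBL2 at 37.95 TPM, of which 14.84 TPM are protein-coding transcripts.

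Within the pocket proteins the composition was computed per sample from TPM. RBL2 made up 38.3% to 45.2% of the summed pocket protein TPM in vehicle samples (median 41.4%) and 67.0% to 76.5% in nutlin samples (median 72.3%). RB1 went from a median of 43.7% (40.0% to 47.4%) to 23.9% (20.6% to 29.4%). RBL1 went from a median of 14.9% (13.1% to 17.4%) to 3.98% (2.83% to 5.59%). The groups did not overlap for any of the 3. The summed TPM did overlap, at 42.6 ± 3.25 in vehicle and 52.9 ± 4.74 in nutlin samples (mean and SD, n = 10 each).

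Log2 ratios of paired members were tested within samples, where library scaling cancels. The ratio of RBL2 to RBL1 was 2.78 in vehicle samples (2.4 to 3.23) and 18.3 in nutlin samples (12.4 to 27.0), and RB1 to RBL1 went from 2.94 (2.33 to 3.61) to 6.16 (4.48 to 8.14). The ratio of RBL2 to RB1 went from 0.945 (0.822 to 1.13) to 2.97 (2.28 to 3.7). These 3 ratios were higher in all nutlin samples than in all vehicle samples. FOXM1 fell less than MYBL2, with a ratio of 0.469 (0.415 to 0.513) in vehicle and 0.700 (0.517 to 0.939) in nutlin samples, which were just apart. For each of the 4 ratios the two-sided permutation test gave p = 2e-05 (adjusted over the 4 ratios, 2e-05), the smallest that 100000 resamples can give. By TPM, RBL2 was higher and RBL1 and RB1 were lower in every nutlin sample, so this p followed for the ratios of RBL2. The 3 pocket protein ratios share members and are not independent.

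**Figure D4:**
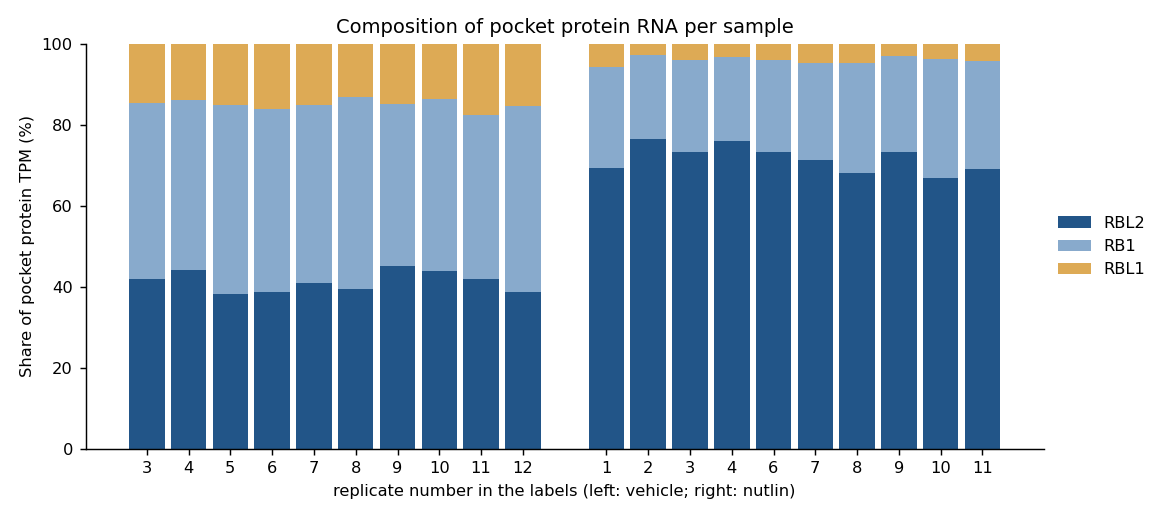
Share of RBL2, RB1 and RBL1 in the summed pocket protein TPM, as a stacked bar per sample that adds to 100%, with vehicle on the left and nutlin on the right. RBL2 takes at most 45.2% of a vehicle bar and at least 67.0% of a nutlin bar.

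The shift toward RBL2 was smaller when counted over protein-coding transcripts alone. That of RB1 relative to RBL1 was larger, with a log2 difference of 1.30 against 1.07 over all transcripts. With only protein-coding transcripts, RBL2 made up 32.5% ± 1.94 in vehicle and 54.8% ± 3.68 in nutlin samples (mean and SD, n = 10 each) and RBL1 22.0% ± 2.37 and 7.6% ± 2.03, still without overlap. RB1, at 45.5% ± 3.1 and 37.6% ± 2.74, then overlapped between the groups. The summed TPM was 28.0 ± 3.21 in vehicle and 27.1 ± 2.53 in nutlin samples, so that its difference turned from higher to lower after nutlin, with overlapping groups. On this scale the ratio of RBL2 to RBL1 went from 1.48 to 7.42 (1.94 to 11.3 with estimated counts), that of RBL2 to RB1 from 0.714 to 1.46 (0.783 to 1.73) and that of RB1 to RBL1 from 2.07 to 5.1 (2.47 to 6.53). The ratio of FOXM1 to MYBL2 went from 0.394 to 0.524, with overlapping groups. All kept the same permutation p = 2e-05. The RBL2 transcripts with retained introns, RBL2-205 and RBL2-206, rose from 4.161 ± 0.6837 to 11.5 ± 2.059 TPM and from 3.8 ± 0.9795 to 10.41 ± 1.29 TPM, with LFC of 1.57 and 1.55. Their mean counts were 35.19 and 32.24 in vehicle and 101.3 and 92.8 in nutlin samples, against 627.5 and 1023 for RBL2-201. The main coding transcript RBL2-201 rose from 9.06 ± 0.8323 to 14.2 ± 1.636 TPM (LFC 0.75), and its share of RBL2 TPM went from 51.6% to 37.4%, lower in every nutlin sample. Transcript usage, the log2 change of a transcript relative to its gene, was not called for any of the 3 (edgeR diffSpliceDGE adjusted p of 0.216, 0.247 and 0.653, in the order named). RB1-206, not annotated as protein-coding, held 26.9% of RB1 TPM in vehicle and 13.5% in nutlin samples, with mean counts of 36.59 and 13.73. Its shares overlapped between the groups, and its usage was not called (edgeR diffSpliceDGE adjusted p = 0.0861).

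At the level of transcripts, 67 of the 10 genes were in the files and 38 were tested, of which 5 rose, 23 fell and 10 were not called. Among all transcripts tested 25.9% rose and 22.9% fell. The 5 that rose were RBL2-201, RBL2-202, RBL2-205, RBL2-206 and LIN37-201. Changed usage was called for 4 of the 38, 2 of them of FOXM1, a share near the 8.59% of all transcripts tested. The others were TFDP1-203 (usage 1.51, edgeR diffSpliceDGE adjusted p = 0.0116) and LIN52-201 (1.37, adjusted p = 0.0288), which had mean counts of 9.653 and 8.531 in vehicle samples. Both of these were lost at 1% FDR and were not tested at a minimum count of 50. RBL2-202 and LIN52-201 were below 1 TPM and are named, after their values were seen, because they were called. The rise of RBL2-202 (edgeR adjusted p = 0.0273) was lost at 1% FDR.

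The FOXM1 transcripts differ by 2 cassette exons, of 45 and 114 bases, which tell its full-length coding forms apart. The shorter is shown, from hg38 on the minus strand of chromosome 12 and written 5′ to 3′.
exon 6 of FOXM1-201, chr12:2865355-2865399, 45 bases: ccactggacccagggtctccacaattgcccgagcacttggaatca
Both lie in the coding sequence and keep its frame, adding 15 and 38 codons. FOXM1-201 holds both exons (801 codons), FOXM1-202 only the 45-base exon (763 codons), and FOXM1-203 neither (748 codons). FOXM1-210 was grouped with FOXM1-203, and its codons were not counted. FOXM1-201 is known as the form without transcriptional activity, and the other forms as activators.

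The share of FOXM1-201 in the TPM of these 4 full-length coding transcripts was between 5.63% and 11.9% in vehicle samples, with a median of 7.44%, and between 14.3% and 38.8% in nutlin samples, with a median of 26.4%. The shares did not overlap, since the smallest nutlin value exceeded the largest vehicle value. Its own level still went down, from 4.349 ± 1.383 to 2.014 ± 0.6882 TPM (LFC -0.995, SE 0.20, edgeR adjusted p = 0.000298), with overlapping groups. Its usage changed by 1.58 on the log2 scale (edgeR diffSpliceDGE adjusted p = 0.000332).

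FOXM1-202 went the other way within the gene. Its share had a median of 41.0% (30.6% to 49.6%) in vehicle and 25.7% (1.09% to 35.1%) in nutlin samples, with 8 of 10 nutlin samples below all vehicle samples. Replicates 10 and 11 of the nutlin group were lowest, at 1.09% and 1.92%. The level went from 21.33 ± 3.112 to 1.625 ± 1.055 TPM (LFC -3.61, SE 0.37, edgeR adjusted p = 3.66e-08), and usage fell by 1.03 (edgeR diffSpliceDGE adjusted p = 4.08e-05). Transcripts with neither exon kept a like share, at a median of 51.0% (43.8% to 57.5%) in vehicle and 51.6% (37.9% to 67.2%) in nutlin samples. The share of forms with the 45-base exon, FOXM1-201 and FOXM1-202 together, was 48.6% ± 4.22 and 47.2% ± 8.99 (mean and SD, n = 10 each), with overlapping groups. By group means the shift thus lay between forms with and without the 114-base exon. Single nutlin samples left the vehicle range of 42.5% to 56.2%, replicates 10 and 11 below it (32.8% and 33.6%) and replicate 9 above it (62.1%). These are kallisto estimates of transcripts that share most of their sequence, the files give no error for them, and FOXM1-202 had a mean of 78.53 counts in nutlin samples.

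**Figure D5:**
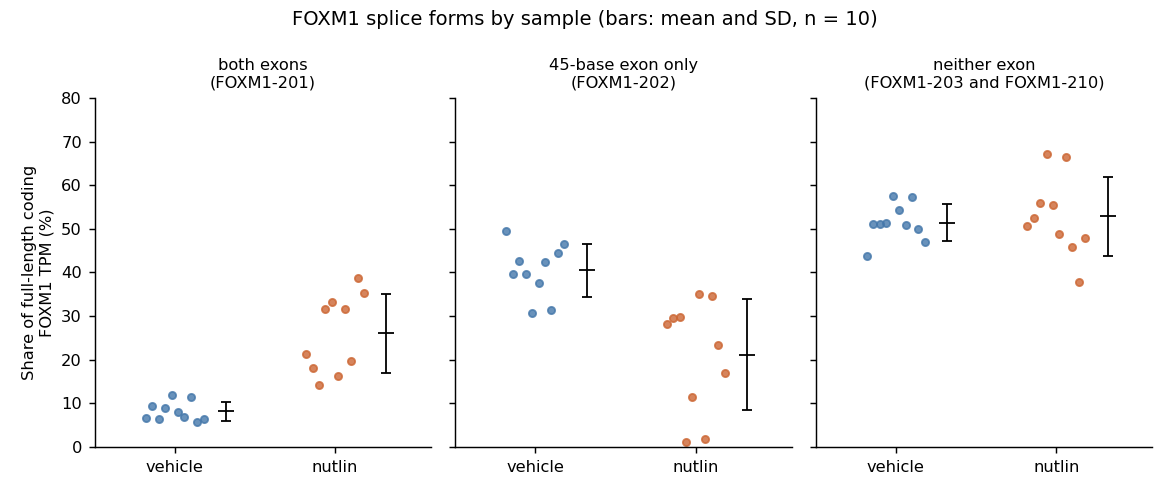
Share of 3 groups of FOXM1 splice forms in the TPM of its full-length coding transcripts, with a point per sample and bars for the mean and SD of 10 samples. The form with both cassette exons has at most 11.9% in vehicle and at least 14.3% in nutlin samples, and 2 nutlin samples of the form with only the 45-base exon lie near 0.

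Each member was set beside 12787 protein-coding genes averaging 1 CPM or more, by the root mean square difference over the 20 samples of log2(CPM + 0.5) relative to a gene's own vehicle mean. The nearest to FOXM1 were RAD54L (0.0758) and PRC1 (0.0888), where the median over all genes was 1.77. MYBL2 was nearest to TK1 (0.0986) and E2F1 (0.105), with a median of 2.13 over all genes. For RBL1 these were LMO4 (0.108) and KNTC1 (0.115), and for RBL2 ZFP90 (0.0768) and SLC7A6 (0.0835). RB1, with the smallest change, was near many genes, with a median of 0.369, and nearest to ELMOD2 (0.0718) and TMEM41B (0.0762). In the core, LIN9 was nearest to NEMP1 (0.0831) and CDC23 (0.102), LIN37 to EIF1 (0.0914) and MTA2 (0.0924), LIN52 to KLHL7 (0.0804) and HNRNPLL (0.0895), and LIN54 to RTTN (0.0957) and NUP155 (0.105). TFDP1 was nearest to GLUD1 (0.0695) and GOLM1 (0.0697). No member was among the compared genes, and the measure mostly ranks genes by how near their LFC are.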

How the data were processed

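The authors quantified read pairs with kallisto 0.42.4 (hg38, per the labels' processing notes) and deposited, per transcript, estimated counts (not normalized), TPM and effective lengths in bases. Transcripts were joined to GENCODE release 44 by identifier (191106 of 198968, 96.05%), which held 95.71% to 96.78% of a sample's counts. Counts were summed per gene and rounded, and genes whose counts totalled 1 or more in both groups were tested with edgeR 4.0.16 (R 4.3.3; TMM, quasi-likelihood F-test, condition as the only term, 5% FDR). Transcripts passing filterByExpr (minimum count 10) were tested likewise, and usage with diffSpliceDGE. Ratios of TPM were tested by two-sided permutation of samples. Alternatives were DESeq2 1.42.0, its size factors, limma 3.58.1 voom, library totals, filters, an effective length offset, coding transcripts only, a replicate block and 1% FDR. The tests were tested on simulated data. Counts of 88 or more behind each member in every sample limit counting error. Named genes were all members, MDM2, the 3 genes of each list with the largest called change, up to 3 called against a list's majority, the 2 nearest genes per member and transcripts of at least 1 TPM. A further gene and a sequence are not reported here. Members and lists were chosen with earlier results of these data known. Figures were drawn with matplotlib 3.10.9.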

Additional observations from a re-analysis of the deposited data

Results flagged for a closer look

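A single sample stood apart from the rest of its group. RBL2 in replicate 4 of the vehicle group was at 53.0 CPM, above the other 9 vehicle samples at 44.5 to 48.8 CPM, with a gap to the nearest of 0.488 of the group's whole range, past the 5% limit for 10 samples. Of 38 groups of values examined this was the only one, and chance alone gives about 1 in 20. It remained below every nutlin sample.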

How the results depend on the processing

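Over the 10 alternatives for genes, the counts of members up (2) and down (8) changed only with library totals alone, where RB1 was lost (LFC -0.14, edgeR adjusted p = 0.0733). None of their LFC changed sign. With library totals, 1 member had an LFC of 1 or higher and 3 of -1 or lower (main 0 and 6), 1 of the other DREAM subunits rose (main 0), and 2 neuroblastoma markers fell (main 5). With the effective length offset 1 member had an LFC of 1 or higher. Changed usage was called for 2 member transcripts at a minimum count of 50 and for 2 at 1% FDR (main 4). The other 209 values of counts and ratios kept their direction and their side of the threshold, counts within 1.5 times, but the log2 difference of RBL2 to RB1 went from 1.65 to 1.03 over protein-coding transcripts and to 1.14 with estimated counts. Of the list genes named, TFDP2 (LFC 0.05, edgeR adjusted p = 0.28) and TYMS (0.02, adjusted p = 0.768) were no longer called with library totals. E2F4 was then called up (LFC 0.11, edgeR adjusted p = 0.00929). TYMS was lost in 5 further alternatives, TFDP2 in 1. LFC ran from -3.17 to -2.96 for MYBL2, from -2.68 to -2.45 for FOXM1, from -1.73 to -1.53 for RBL1 and from 0.73 to 1.10 for RBL2.

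Numbers in the labels are shared by 8 pairs of samples, but these did not deviate together (mean r 0.0031, -0.042 to 0.079, 0 pairs over 0.1, across genes). With the number as a replicate block, 14276 genes were SDE, 7519 up and 6757 down, against 8086 and 6906 in the same 16 samples without it, and again 2 members rose and 8 fell. Transcript estimates rest on fewer counts than gene sums and carry no error in the files. Leaving out single replicates applies to groups of up to 5 and was not run.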

Other observations

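Some genes of the lists stood out by their direction and are named after their values were seen. CDKN1B (p27), a kinase inhibitor of resting cells, fell from 48.3 ± 6.957 to 22.31 ± 1.86 CPM (mean and SD, n = 10 each, LFC -1.11, edgeR adjusted p = 5.92e-15), while CDKN1C rose from 10.64 ± 0.9713 to 18.9 ± 1.417 CPM (LFC 0.83). CCND1, a D-type cyclin, rose from 1070 ± 45.23 to 1457 ± 35.52 CPM (LFC 0.45), and DYRK1A, the kinase that promotes DREAM assembly through LIN52, rose by 0.20 on the log2 scale with overlapping groups. TYMS, thymidylate synthase, was the only G1/S gene whose groups overlapped, at 68.37 ± 4.646 and 60.7 ± 7.165 CPM (LFC -0.17), and it was not called in 6 of the 10 alternatives.

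The spread between samples of a group also differed among members. The coefficient of variation was between 3.48% (TFDP1) and 11.4% (LIN37) in vehicle samples and between 5.94% (LIN37) and 13.8% (MYBL2) in nutlin samples.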
